A study of Mus musculus with 2 samples.

Results

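A set of 10 genes of the machinery that folds and compacts chromosomes were described in developing mouse forebrain. They were the cohesin subunits Smc1a, Smc3, Rad21, Stag1 and Stag2, the cohesin loader Nipbl, the insulator protein gene Ctcf, and the condensin subunits Smc2, Smc4 and Ncapg. They were chosen by name, as the entries whose Ensembl gene identifier, without its version, carries one of these names in the GENCODE M21 mouse annotation. All 10 genes were found among 43346 Ensembl genes, with 63 transcripts among 129984 transcript entries. The study measured total RNA by sequencing in a single group, forebrain of C57BL/6NCrl embryos of both sexes at embryonic day 11.5, in 2 libraries that the labels number as biological replicates 1 and 2. Replicate 1 was pooled from 109 embryos and replicate 2 from 88 embryos, and each library was made from 10 ng of RNA longer than 200 nucleotides. There was no treatment, mutant or second tissue, so levels are descriptive and the 2 libraries could be compared only with each other.

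Cohesin is a ring of SMC1A, SMC3 and the kleisin RAD21, bound by STAG1 or STAG2, that extrudes loops of chromatin in interphase and holds sister chromatids together until anaphase. NIPBL, with MAU2, loads cohesin and drives loop extrusion, and CTCF, a zinc finger protein bound to DNA in a fixed orientation, halts the moving ring and so sets domain borders. Condensin is a related ring built on SMC2 and SMC4 that compacts chromosomes for mitosis. NCAPG is a HEAT repeat subunit of condensin I, and NCAPG2 takes its place in condensin II. Mutations in human NIPBL, SMC1A, SMC3 and RAD21 cause Cornelia de Lange syndrome, in which brain development is affected.

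These stretches of sequence mark some of the differences between transcripts that the isoform results compare. All are from the plus strand of GRCm38, with exon borders from GENCODE M21. The first pair is a cassette exon of 111 bases, or 37 codons, that is exon 31 of 34 in Stag1-206 at chr9:100953486-100953596 and exon 31 of 34 in Stag2-203 at chrX:42266366-42266476. It is shown because transcripts with and without it were both measured in each gene. Capitals mark the positions at which the 2 exons carry the same base, 51 of 111 or 45.9%.
Stag1 cassette exon: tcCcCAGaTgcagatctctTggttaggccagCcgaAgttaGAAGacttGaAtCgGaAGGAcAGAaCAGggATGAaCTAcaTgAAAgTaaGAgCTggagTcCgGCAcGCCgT
Stag2 cassette exon: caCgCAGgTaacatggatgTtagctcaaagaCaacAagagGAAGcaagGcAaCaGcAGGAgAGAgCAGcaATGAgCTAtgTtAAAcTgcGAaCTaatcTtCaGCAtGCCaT

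The second pair is the end of exon 2 in 2 transcripts of Smc4, shown because the transcript with the longer exon took most of the gene's counts. Capitals mark the 11 bases, chr3:69006214-69006224, that Smc4-207 has and Smc4-201 lacks, and an in-frame stop codon starts at base 6 of them.
Smc4-207 exon 2 end: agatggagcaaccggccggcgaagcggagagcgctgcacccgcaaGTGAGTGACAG
Smc4-201 exon 2 end: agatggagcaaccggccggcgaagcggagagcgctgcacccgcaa

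The last is the junction in Smc1a-206 that joins exon 1 to exon 4 of the full-length Smc1a-201, between chrX:152016640 and chrX:152026238. Capitals mark the bases after the junction, and the 2 skipped exons hold 302 bases, which is not a multiple of 3 and leaves 2 bases over.
Smc1a-206 junction: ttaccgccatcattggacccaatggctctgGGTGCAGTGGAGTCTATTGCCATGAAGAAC

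The libraries held 23165260 counts in replicate 1 and 33597028 counts in replicate 2 on mouse genes. Spike-in RNAs took 5.66% and 5.49% of all counts. The tissue label was checked against marker lists: 6 of 6 neural progenitor genes, 5 of 5 newborn neuron genes and 6 of 6 genes of dividing cells were at 1 TPM (a transcript's length-scaled share of its library, here the unit of level) or more in both libraries, and 0 of 6 HOX genes of hindbrain and trunk were. All 4 erythroid, 4 endothelial, 4 mesenchyme and 4 macrophage genes were also detected, so the libraries are bulk tissue that includes blood, vessels and mesenchyme. In such bulk RNA, more cells of a type and more RNA per cell cannot be told apart.

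All 10 genes were well measured, with 2966 to 5609 counts each in replicate 1 and 4663 to 8992 counts each in replicate 2. Their median level was 75.7 TPM, beside 3.95 TPM over 21474 protein-coding genes and 20.6 TPM over the 12581 protein-coding genes detected at 1 TPM or more in both libraries. Every one of the 10 lay above the median of detected genes, and the mean percentile among all protein-coding genes ran from 72.6 for Nipbl to 96.5 for Smc4. The members spanned an 8.19-fold range of mean TPM.

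**Figure D1:**
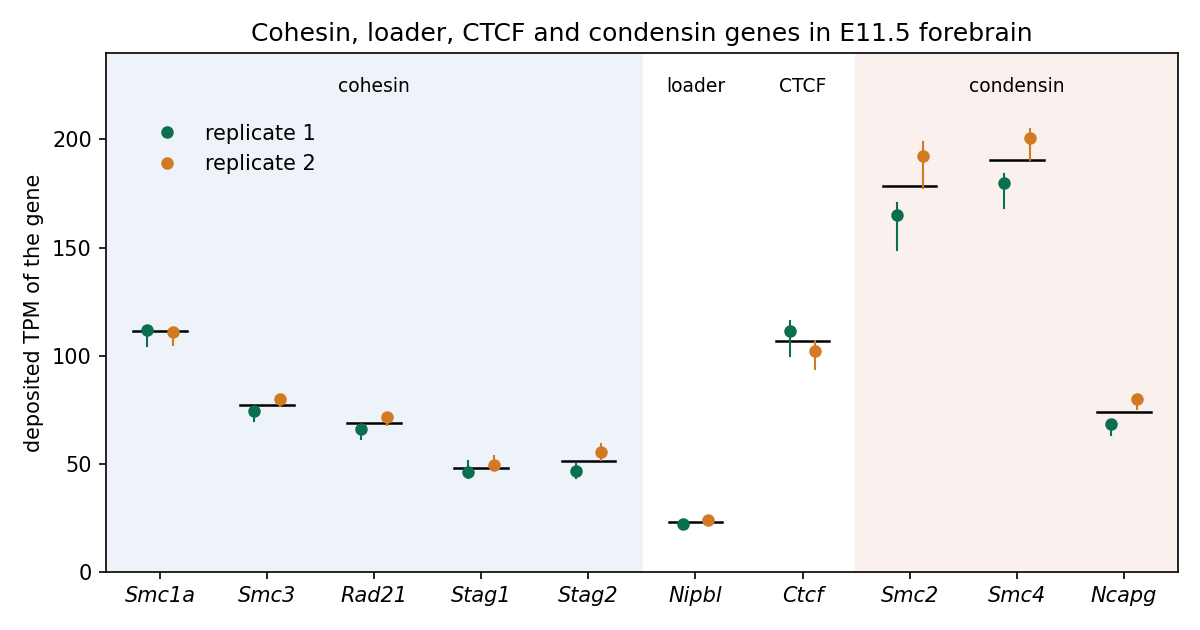
Deposited TPM of the 10 genes (vertical axis) in replicate 1 (green, left) and replicate 2 (orange, right), and a black line at the mean. Thin vertical lines span the deposited intervals, which surround the posterior mean and not the plotted TPM, so that some points lie above their line. Smc4 and Smc2 sit highest, with means of 190.3 and 179 TPM, and Nipbl lowest at 23.2 TPM.

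Among the ring subunits, Smc1a, on chromosome X at 152016428-152062694, had 112 TPM in replicate 1 and 111 TPM in replicate 2 (111 ± 0.841, SD, n = 2). Smc3, its partner ATPase on chromosome 19, had 74.4 and 80.1 TPM (77.2 ± 4.08). Rad21, the kleisin that closes the ring and is cleaved by separase at anaphase, had 65.9 and 71.8 TPM (68.9 ± 4.16). Smc1a was above both other subunits in each library, and the ranges of Smc3 and Rad21 did not overlap.

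Stag1 and Stag2, the alternative subunits that contact CTCF and decide which form of cohesin is built, were close to each other. Stag1 had 46.2 and 49.6 TPM (47.9 ± 2.47) and Stag2, on chromosome X, had 46.9 and 55.7 TPM (51.3 ± 6.24). Their ranges overlapped, and the ratio of Stag2 to Stag1 was 1.015 in replicate 1 and 1.12 in replicate 2 (1.07 ± 0.0753). Nipbl was the lowest of the 10, with 22.3 and 24.2 TPM (23.2 ± 1.37), and no other member's range reached it. Mau2, the partner of NIPBL in the loader, had 31.3 and 29.6 TPM, so that Nipbl stood at 0.711 and 0.817 of Mau2. By counts without length scaling, the ratio turned to 1.18 and 1.35.

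Ctcf, on chromosome 8 at 105636568-105682922, had 111 and 102 TPM (107 ± 6.37), and its range overlapped that of Smc1a. It shares 114 bases with Agrp and 370 bases with the noncoding Gm5914 on the opposite strand, and its counts were not whole numbers. Whether the authors counted by strand is not stated. Agrp had 1.27 and 0.4 TPM and Gm5914 had 8.2 and 9.32 TPM, far below Ctcf in both libraries. The effect of this overlap on the level of Ctcf was not tested.

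The condensin core genes were the most abundant by TPM of the whole gene. Smc4, on chromosome 3 at 69004738-69034623, had 179.9 and 201 TPM (190.3 ± 14.7), and Smc2, on chromosome 4, had 165 and 193 TPM (179 ± 19.6). The ranges of this pair overlapped each other and lay above those of the other 8 genes. Ncapg had 68.4 and 79.8 TPM (74.1 ± 8.004), with a range that overlapped those of Smc3 and Rad21. Ncapg shares 944 bases with Lcorl on the opposite strand, which had 27.1 and 28.6 TPM, and here too the part of shared reads was not tested.

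The TPM order depended on the length used for each gene. A gene's TPM divides by a length averaged over its transcripts, and short transcripts of Smc4, Smc2, Ctcf and Smc1a lowered it, for Smc2 in replicate 2 to an effective length of 1772 bases, beside a full length of 5404 bases for its principal coding transcript Smc2-201. When the same counts were divided by the effective length of the principal coding transcript, a scaling chosen after seeing the data, Smc2 dropped to 39.0 and 42.3 CPM per kilobase (counts scaled to the library's total, CPM, and to length) and to rank 7. Smc4 stayed first at 57.4 and 63.5, and Smc3 and Smc1a followed with means of 50.4 and 50.1. The range between the highest and the lowest gene narrowed to 3.95-fold, and Stag2, Stag1 and Nipbl kept the last 3 places on both scales. Another scale, the TPM of complete coding transcripts alone, also chosen after seeing the data, gave a different order. On it Smc4 was last of the 10, with 8.95 and 6.55 TPM, below Nipbl with 22.3 and 24.2 TPM. Smc3 was first with 73.5 and 79.4 TPM, and the range between the highest and the lowest gene was 9.86-fold.

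**Figure D2:**
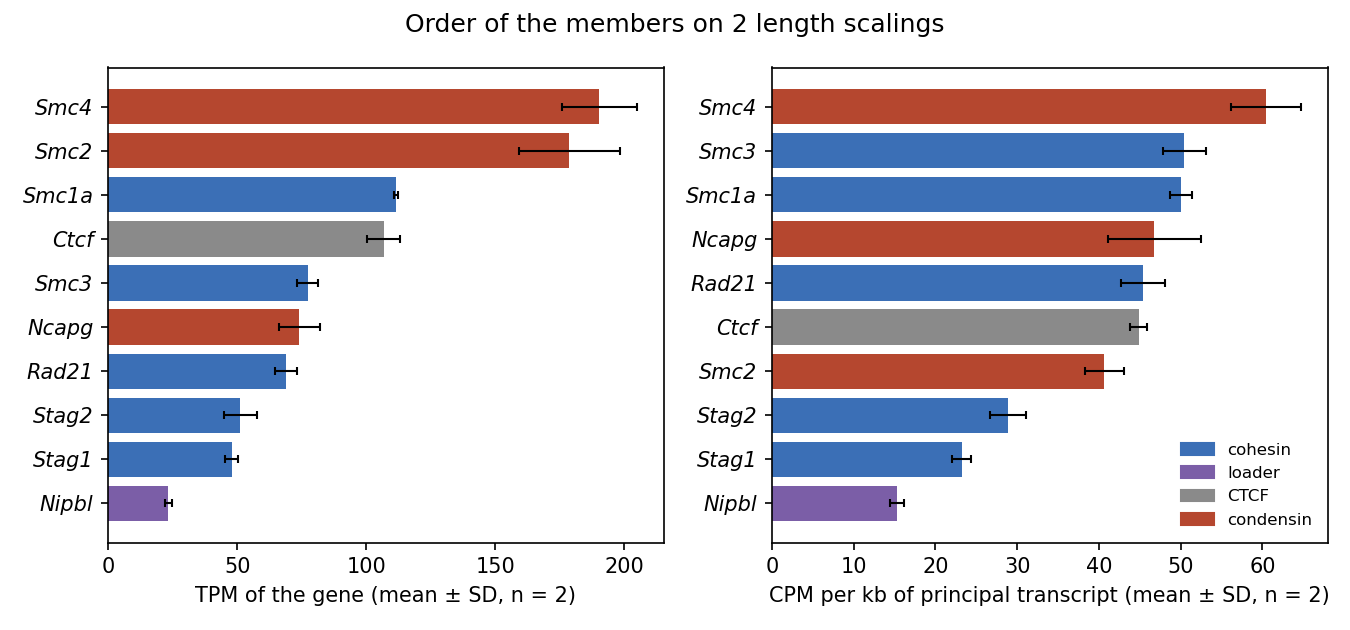
Mean level of the 10 genes as deposited TPM (left panel) and as CPM per kilobase of the principal coding transcript (right panel), with SD over 2 libraries as whiskers. Smc2 moves from rank 2 with 179 TPM to rank 7 with 40.7, while Smc4 is first and Nipbl last in both panels; by complete coding transcripts, not drawn, Smc4 is last with 7.75 TPM.

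Ratios within a complex moved with the same choice. Smc1a exceeded Smc3 by TPM, with ratios of 1.51 and 1.38 (1.45 ± 0.0872). The ratio was 1.05 and 0.939 by principal transcript length (mean 0.995), and 0.797 and 0.695 by complete coding transcripts. Rad21 to Smc3 moved little between these scales, at 0.887 and 0.896 by TPM (0.891 ± 0.00683), a mean of 0.8999 by principal length and a mean of 0.901 by complete coding transcripts. Ctcf to Rad21 was 1.69 and 1.42 by TPM (1.56 ± 0.187) and 1.014 and 0.965 by principal length (mean 0.989), and 0.888 and 0.871 by complete coding transcripts.

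For condensin, Smc4 to Smc2 was 1.09 and 1.04 by TPM (1.07 ± 0.0347) and 1.47 and 1.499 by principal length, but 0.217 and 0.148 by complete coding transcripts. Ncapg was at 0.415 and 0.414 of Smc2 by TPM, yet at 1.096 and 1.2 of it by principal length and 1.45 and 1.6 of it by complete coding transcripts, so that the direction of this ratio turned with the length. Ncapg, the condensin I subunit, was above Ncapg2, its condensin II counterpart, on both scales, with ratios of 3.02 and 3.33 by TPM (3.18 ± 0.217) and 2.86 and 3.22 by principal length; without length scaling, the counts gave 1.58 and 1.78. Stag2 to Stag1 was 1.22 and 1.27 by principal length, with Stag2 above Stag1 in both libraries.

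The short transcripts are annotated mostly as not coding for a complete protein. Of the 63 transcripts, 15 took 20% or more of their gene's TPM in either library, 10 of them with a complete coding sequence and 5 without. Rad21 and Nipbl have 1 transcript each in the table, a complete coding one, so their share was fixed at 100% by the annotation and is no measurement. Smc3 had 98.83% and 99.03% of its TPM in complete coding transcripts and Ncapg had 87.3% and 88.4%. Stag2 had 85.4% and 80.1%, and Stag1 had 66.6% and 66.2%.

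The other 4 genes, Ctcf, Smc1a, Smc2 and Smc4, had lower complete coding shares. Ctcf had 52.6% and 61.2% of its TPM in complete coding transcripts (56.9 ± 6.04, SD, n = 2), and Smc1a had 52.2% and 49.7% (51.0 ± 1.77). Smc2 had 25.1% and 22.9% (24.0 ± 1.502), and Smc4 had 4.97% and 3.26% (4.12 ± 1.21). Short transcripts weigh more in TPM than in counts: by counts, the complete coding share was 88.9% for Ctcf, 74.8% for Smc1a and 69.2% for Smc2, whereas for Smc4 it was still 8.54%.

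**Figure D3:**
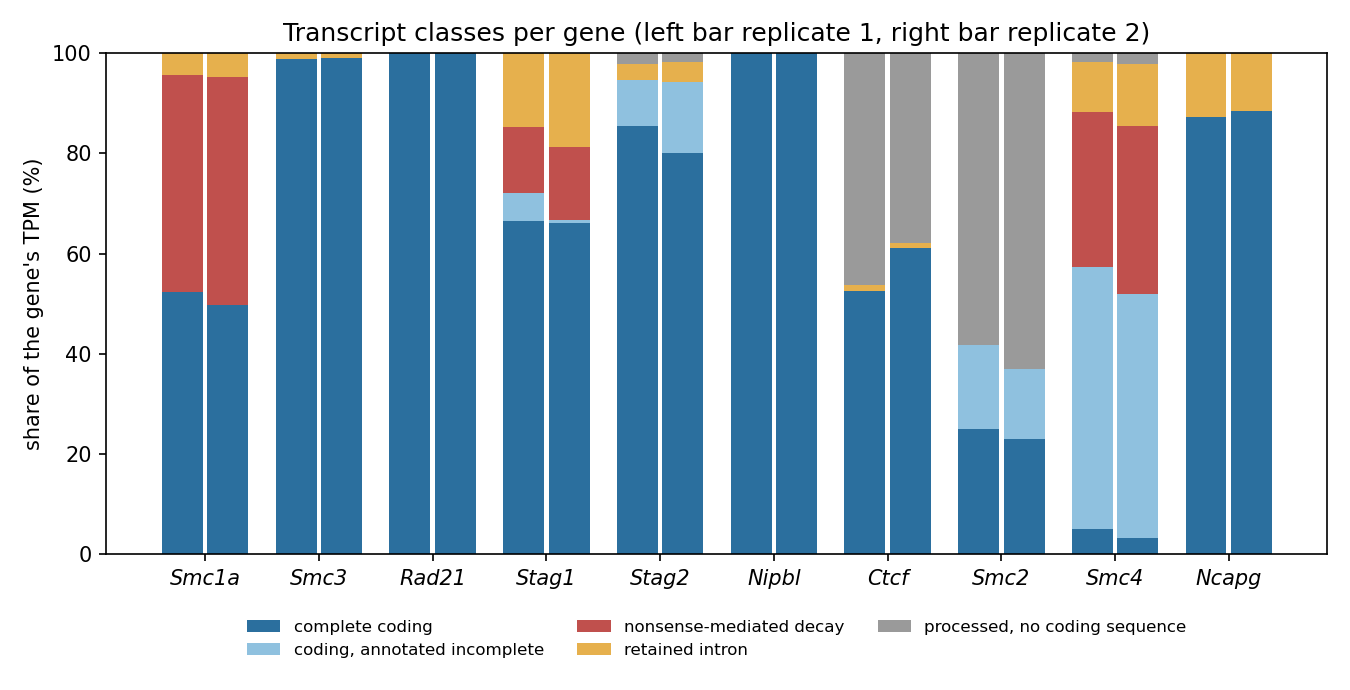
Share of each gene's TPM (vertical axis, percent) by annotated transcript class, with replicate 1 as the left bar and replicate 2 as the right bar of each pair. Complete coding transcripts hold 98.9% of Smc3, 24.0% of Smc2 and 4.12% of Smc4 on average; Rad21 and Nipbl have 1 annotated transcript each, so their bars could show no other class.

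In Smc1a, the second transcript was Smc1a-206, of 1824 bases and annotated as a target of nonsense-mediated decay, the pathway that destroys messages with an early stop codon. It took 43.3% and 45.4% of the gene's TPM and 23.6% and 25.3% of its counts. Its junction from exon 1 to exon 4, printed above, shifts the frame, and a stop follows 54 codons from the start, against 1233 codons in Smc1a-201. It has 10 exons, against 25 in Smc1a-201. Besides the skipped exons, Smc1a-206 lacks 36 bases of exon 12 and all of exons 13 to 25 of Smc1a-201. Which of these differences set the split between the 2 transcripts was not tested. The share of Smc1a-206 in TPM and in counts was slightly lower in replicate 1 than in replicate 2.

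In Smc4, Smc4-206, of 1163 bases with an incomplete coding sequence, took 52.4% and 48.6% of TPM, and Smc4-207, annotated for nonsense-mediated decay, took 30.7% and 32.8%. By counts Smc4-207 led, with 59.6% and 64.1%. Its 11 extra bases at the end of exon 2, printed above, bring a stop after 46 codons, against 1286 codons in Smc4-201. Besides these bases, the models of Smc4-207 and Smc4-201 differ in 270 bases of exon 1 that Smc4-207 lacks, and which of the differences set the split between them was not tested.

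In Smc2, Smc2-203, a processed transcript of 643 bases with no coding sequence, took 49.2% and 48.5% of TPM but 14.1% and 14.9% of counts. Smc2-201, the full-length coding transcript, took 24.9% and 22.6% of TPM and 69.5% and 67.6% of counts. In Ctcf, the processed Ctcf-202, of 528 bases, took 38.4% and 29.5% of TPM and 7.44% and 5.07% of counts. Ctcf-201, which encodes the full protein, took 52.6% and 61.2% of TPM. Replicate 1 was higher than replicate 2 in the share of Ctcf-202 and lower in that of Ctcf-201.

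The 2 STAG genes differed in the share of TPM assigned to transcripts with the 111-base exon. Stag1-206, with the exon, took 40.6% and 50.1% of the gene's TPM, and Stag1-201, without it, took 26.0% and 16.1%. In Stag2 the transcript without the exon led: Stag2-201 took 66.0% and 64.4%, and Stag2-203, with the exon, took 19.4% and 15.7%. Among transcripts that span the exon, those with it held 55.5% and 66.7% of TPM in Stag1 (61.1 ± 7.88) and 22.7% and 19.6% in Stag2 (21.1 ± 2.23).

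Both Stag1 shares were above both Stag2 shares. By counts, the means were 67.2% in Stag1 and 22.1% in Stag2. The comparison was chosen after seeing the data, and with 2 values a gene no permutation test could reach 0.05, so no p is given. These shares come from the authors' division of reads among transcripts, 4 with and 2 without the exon in Stag1 and 1 with and 2 without it in Stag2. The models compared also differ in exon 1, where Stag1-206 has 165 bases that Stag1-201 lacks. Stag2-203 has 369 bases there that Stag2-201 lacks, and Stag2-201 has 134 that Stag2-203 lacks. Which of the differences set the shares was not tested, and reads across the junctions themselves were not analysed here.

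**Figure D4:**
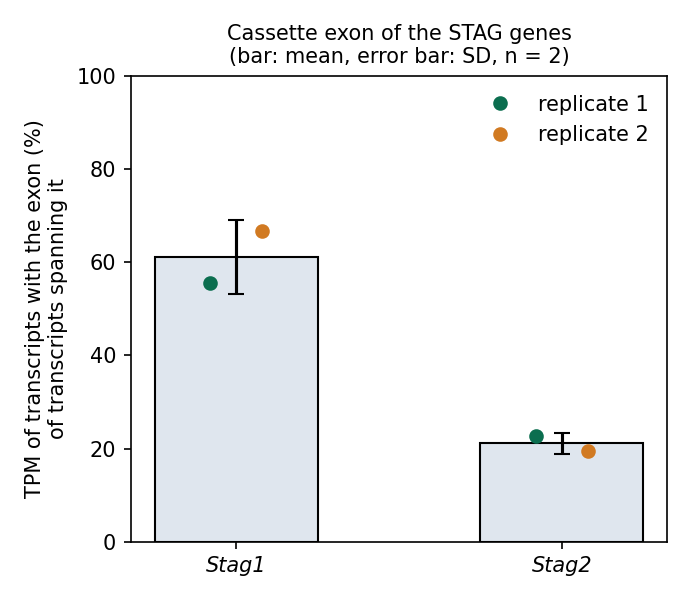
Share of TPM (vertical axis, percent) in transcripts that contain the 111-base exon, among transcripts spanning it, for Stag1 and Stag2. Bars are means, whiskers SD, and points the 2 libraries, which lie at 55.5% and 66.7% for Stag1 and at 22.7% and 19.6% for Stag2.

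The other genes of these pathways were taken from 6 lists holding 31 genes, and 28 were detected at 1 TPM or more in both libraries. All 11 genes that load, release, acetylate or cleave cohesin were detected, with a median of 32.7 TPM. Cdca5, which encodes sororin, the protector of sister chromatid cohesion, was the highest of them by TPM of the whole gene, at 60.9 and 60.04 TPM. Pds5a, a cohesin release and maintenance factor, had 53.3 and 55.2 TPM, all in complete coding transcripts, in which Cdca5 had 36.3 and 39.6 TPM and was lower, and its paralog Pds5b had 37.5 and 38.1 TPM. Wapl, the release factor, had 26.7 and 27.3 TPM, above the loader gene Nipbl in both libraries. By principal length Wapl was also above Nipbl, at 17.6 and 17.8 against 14.7 and 15.9 CPM per kilobase. By counts without length scaling Wapl was below it, at 110 and 111 CPM against 128 and 139 CPM. Hdac8, the SMC3 deacetylase, was the lowest at 2.82 and 2.07 TPM.

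Cohesin subunits of meiosis were low. Rad21l had no count in either library, and Smc1b had 6 counts in replicate 1 and 5 counts in replicate 2. Stag3 had 4.53 and 4.31 TPM and Rec8 had 3.32 and 4.11 TPM, both above the threshold, while 0 of 4 germ cell genes reached it. Ctcfl, the testis paralog of Ctcf, had 3 and 2 counts.

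Both other condensin I subunits on the lists were abundant, Ncapd2 with 181 and 217 TPM and the kleisin Ncaph with 103 and 105 TPM. In condensin II, Ncaph2 had 157 and 147 TPM, Ncapd3 had 26.5 and 27.0 TPM and Ncapg2 had 22.6 and 23.9 TPM. Ncapd2 was thus 6.82 and 8.03 times Ncapd3 by TPM, 4.17 and 4.73 times by principal length and 3.5 and 3.96 times by counts without length scaling. Ncaph, in contrast, was at 0.658 and 0.713 of Ncaph2 by TPM. The ratio of Ncaph to Ncaph2 was 0.806 and 0.86 by principal length and 0.943 and 0.937 by complete coding transcripts. All 7 genes of the SMC5/6 complex and SMCHD1 were detected, from Nsmce3 at 8.68 and 9.07 TPM to Nsmce4a at 167 and 172 TPM. Of the zinc finger factors, Maz had 92.6 and 77.4 TPM, Zfp143 had 25 and 22.04 TPM and Yy1 had 23.5 and 23.6 TPM.

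**Figure D5:**
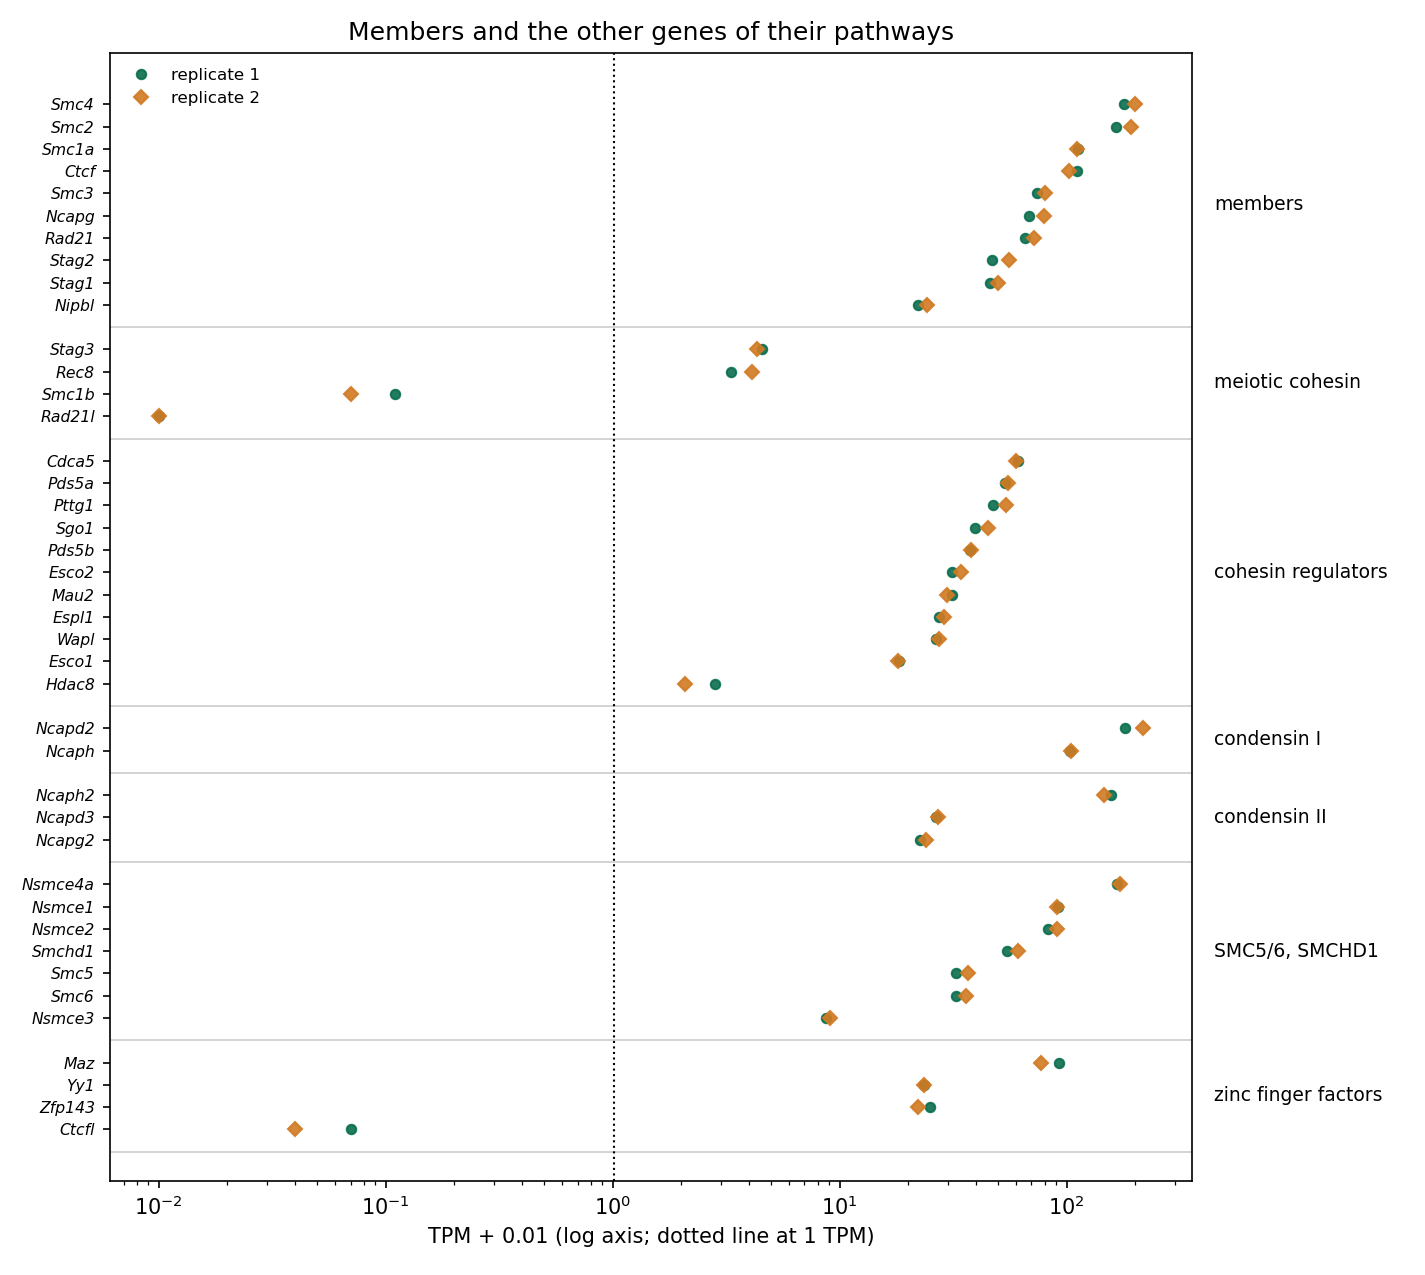
TPM plus 0.01 on a log axis for the 10 members and 31 genes of their pathways, with replicate 1 as green circles and replicate 2 as orange diamonds, and a dotted line at 1 TPM. All 10 members and 28 pathway genes lie right of the line, and Smc1b, Rad21l and Ctcfl left of it.

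The 2 libraries were then compared gene by gene, as a measure of how far replicates of this tissue differ. The exact binomial test used here compares those libraries and counts sampling error only, with p-values adjusted by Benjamini-Hochberg over 18297 genes with 10 or more counts. It called 23.4% of all genes, 12.6% lower and 10.9% higher in replicate 1. Of the members, 8 of 10 were called, all 8 lower in replicate 1.

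Ncapg differed most, with 154 CPM in replicate 1 and 183 in replicate 2, a log2 ratio of -0.26 (adjusted p = 2.89e-15, exact binomial test). Stag2 followed at 156 and 174 CPM (log2 ratio -0.16), then Smc4 at 242 and 268 (-0.15). The 5 others that were called had log2 ratios between -0.13 and -0.11. Smc1a, at 234 and 226 CPM (log2 ratio 0.05, adjusted p = 0.176, exact binomial test), and Ctcf, at 162 and 168 (-0.06, adjusted p = 0.185, exact binomial test), were not called.

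The median log2 ratio was -0.12 over the members and -0.01 over all genes. The test calls well-counted genes more often: among genes with 5000 to 20000 counts in both libraries together, 46.2% were called and 26.3% were called lower in replicate 1. Length was looked at in protein-coding genes alone, with 1000 or more counts in both libraries together. Among the 2129 of these with 4000 bases or more by the deposited length, 30.0% were called lower in replicate 1. The share was smaller in every shorter class, at 16.1% of the 3783 genes with 2000 to 4000 bases and 16.7% of the 616 under 1000 bases. By effective length, Smc3, Stag1, Stag2 and Nipbl had 4000 bases or more in both libraries, and the other members had fewer. Of the 6 genes of dividing cells, 0 were called higher and 2, Mki67 and Top2a, lower in replicate 1, with a list median log2 ratio of 0.00 and a summed level of 1560 TPM in replicate 1 and 1559.9 TPM in replicate 2. Of the 5 newborn neuron genes, 2 were called higher and 1 lower, with a list median log2 ratio of 0.03. Their summed levels were 851 and 788 TPM, of which Tubb3 alone held 506 and 439 TPM. Map2, the 1 called lower, had 129 and 140 TPM. Of the 6 neural progenitor genes, 2 were called higher and 2 lower, with a list median log2 ratio of 0.01. The part of count, length and cell makeup in the members' calls was not tested. With edgeR's exact test and a dispersion shared by all genes, which adds the spread between libraries, 220 genes or 1.202% were called. Of the 10 members, 0 were called and 0 had an unadjusted p under 0.05. That dispersion was estimated from these same 2 libraries taken as 1 group. The differences under test thus helped to set it, so the lower number of calls is no independent check of the binomial test.

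Differences among the pathway genes were mixed in direction. Esco2, a cohesin acetyltransferase, was the only one of 11 regulators called, and was lower in replicate 1 (log2 ratio -0.17). Ncapd2 was lower in replicate 1 (-0.21) and Ncaph2 higher (0.09). Smc5, Smc6 and Smchd1 were lower, and Maz (0.26) and Zfp143 (0.18) were higher in replicate 1.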

How the data were processed

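Total RNA-seq libraries of E11.5 forebrain were analysed from the authors' gene and transcript tables. The tables hold expected counts (estimated reads per gene), TPM, FPKM, posterior mean counts and TPM with interval bounds, and the percent of a gene's level in each isoform, as deposited by the authors. Alignment was to the mm10 genome and to GENCODE M4 transcripts, per the text notes deposited with the files. No source used here names the aligner or quantifier, or says if strand was used. Names, exons and coordinates came from GENCODE M21 on GRCm38: all 63 transcripts matched, 59 with the same length. Levels are the deposited TPM; the principal coding transcript's length was used as an alternative. Library sizes were scaled by TMM (edgeR 4.0.16, R 4.3.3). Expected counts were rounded for an exact binomial test (scipy 1.17.1) with a prior of 0.5 counts and a threshold of 0.05. The test was run on simulated counts that held sampling error alone. Such counts cannot show how it behaves where libraries differ beyond that error. DESeq2 1.42.0 size factors, total counts, other filters and priors, posterior mean counts and edgeR's exact test were the alternatives. With 2 libraries that the labels give as separate collections, an SD has n = 2 and p-values measure the spread or sampling error of these libraries alone; intervals cover estimation error only. The text names all 10 members, the genes of 6 lists and member transcripts at 20% or more of their gene, plus members' overlapping genes. The members and lists were chosen with earlier results of these data known.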

Additional observations from a re-analysis of the deposited data

How the results depend on the processing

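Detection of the 10 members and of 28 pathway genes was unchanged under posterior mean TPM, TPM without spike-ins, scaled FPKM, a floor of 0.1 TPM and each library alone; at 5 TPM, 25 pathway genes and 10 members were detected. With n = 2, leaving out a library leaves the other library's value, and the count of transcripts at 20% or more of their gene was then 14 to 15. Length and transcript choice moved the ratios more. With counts not divided by length, the ratios were 0.961 for Smc1a to Smc3, 0.664 for Rad21 to Smc3, 1.17 for Stag2 to Stag1, 1.04 for Ctcf to Rad21, 1.18 for Smc4 to Smc2 and 0.779 for Ncapg to Smc2. With TPM of protein-coding transcripts they were 0.746, 0.901, 1.46, 0.879, 1.48 and 0.929 in the same order. With the principal transcript's length, chosen after seeing the data, they were 0.995, 0.8999, 1.24, 0.989, 1.49 and 1.15. With complete coding transcripts, also chosen after seeing the data, they were 0.746, 0.901, 1.33, 0.879, 0.183 and 1.52. With posterior mean TPM, Ncapg to Smc2 was 0.416. Of the ratios with other genes, counts without length turned Nipbl to Mau2 to 1.27 and gave 1.68 for Ncapg to Ncapg2 and 3.73 for Ncapd2 to Ncapd3. Other scalings, filters, priors and posterior mean counts called 4045 to 4308 genes and 8 members between the libraries. The exact test of edgeR with a common dispersion called 220 genes and 0 members. It adds a spread between libraries that the binomial test lacks, but that spread was estimated from the same 2 libraries that were compared. No paired analysis was possible because there was 1 group. With 2 libraries, differences between members smaller than their spread could not be resolved.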
